A study of Mus musculus with 2 samples.

Results

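The 10 genes described here encode proteins that build microvilli, the finger-like extensions on the apical surface of epithelial cells. They are Vil1, Espn, Pls1, Eps8, Myo1a, Ezr, Cdhr2, Cdhr5, Ush1c and Myo7b, chosen by name from what their proteins are known to do, out of 27998 genes in each matrix. Earlier results of these data were known when the genes were chosen. Their levels were read in 10 annotated cell types of crypts, the stem cell-bearing glands at the base of the epithelium, taken from the jejunum. The donors were 2 male mice, both 12 months old, with a CRISPR/Cas9 knockout of miR-375 in the whole body (375KO), 1 single-cell library per mouse. The labels give the strain as C57BL6/2J and the protocol describes the animals as B6 albino. The wild-type libraries of the study were not analysed here, so each comparison is between cell types within 375KO mice, and no value below measures an effect of the knockout.

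A microvillus is held up by a bundle of parallel actin filaments. Villin (Vil1), espin (Espn) and plastin 1 (Pls1, also called fimbrin) cross-link the filaments, and Eps8 binds their growing tips. Ezrin (Ezr) and the motor myosin 1a (Myo1a) tie the bundle to the membrane around it. At the tips, the protocadherins Cdhr2 and Cdhr5 form adhesive links between neighbouring microvilli, and Ush1c (harmonin) and the motor Myo7b anchor these links inside the cell. Enterocytes, the absorptive cells, pack microvilli into a dense brush border. Tuft cells, which sense the contents of the gut lumen, carry a tuft of long, thick microvilli with deep actin roots.

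The libraries held 2082 kept cells with 44017234 UMIs in replicate 1 and 1193 kept cells with 22163354 UMIs in replicate 2 (a UMI, or unique molecular identifier, stands for 1 captured RNA molecule), and the libraries shared 0 barcodes. The types ranged from 931 and 382 enterocytes to 31 and 19 secretory progenitors, with 40 and 38 tuft cells. All 6 enterocyte markers, such as Alpi and Lct, and all 6 tuft markers, such as Dclk1 and Trpm5, were highest in their own type in both mice, and 45 of 53 markers were over all types. No marker of the goblet progenitors did so (0 of 3). Mir375 has no row in the matrices, so its deletion was not checked in these data. Levels below are UMIs of a gene per 1000000 UMIs of the cell type (CPM) in each mouse, with exact Poisson 95% intervals where given, which cover counting error only. In Paneth cells 10 genes took 82.6% and 81.9% of the UMIs, which lowers the CPM of every other gene there.

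The promoters of the genes are shown first, as a description of their sequence. The RefSeq table of promoters (GRCm38.p6) holds windows for 8 of the 10 genes, with 3 start sites for Espn. The 250 bases upstream of a start site are printed 5′ to 3′ on the strand of the gene, with each CpG dinucleotide in capitals. That of Vil1 lies at chr1:74409134-74409383 (+), that of Espn, at the first of its start sites, at chr4:152152390-152152639 (-), that of Cdhr2 at chr13:54701213-54701462 (+) and that of Ezr at chr17:6782781-6783030 (-).
Vil1: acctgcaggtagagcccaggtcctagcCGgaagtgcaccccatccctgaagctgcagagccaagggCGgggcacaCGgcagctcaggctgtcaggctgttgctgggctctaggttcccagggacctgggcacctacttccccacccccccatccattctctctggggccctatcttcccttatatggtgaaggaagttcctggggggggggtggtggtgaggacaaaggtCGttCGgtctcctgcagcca
Espn: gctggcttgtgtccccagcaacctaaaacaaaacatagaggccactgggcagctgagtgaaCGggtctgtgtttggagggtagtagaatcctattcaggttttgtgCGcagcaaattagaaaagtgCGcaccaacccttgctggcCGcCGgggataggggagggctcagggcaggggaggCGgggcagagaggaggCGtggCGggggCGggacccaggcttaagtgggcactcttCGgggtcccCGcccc
Cdhr2: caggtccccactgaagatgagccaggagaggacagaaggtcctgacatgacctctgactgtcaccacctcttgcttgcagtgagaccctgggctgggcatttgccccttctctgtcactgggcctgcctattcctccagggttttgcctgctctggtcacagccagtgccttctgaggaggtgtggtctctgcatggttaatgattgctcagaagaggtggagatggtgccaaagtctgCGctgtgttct
Ezr: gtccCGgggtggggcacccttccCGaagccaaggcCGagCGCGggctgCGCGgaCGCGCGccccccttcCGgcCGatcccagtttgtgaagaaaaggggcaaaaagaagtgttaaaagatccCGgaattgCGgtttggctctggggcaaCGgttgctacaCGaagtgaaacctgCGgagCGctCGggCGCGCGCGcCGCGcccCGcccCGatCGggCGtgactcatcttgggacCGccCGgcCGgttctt

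The Ezr window held 32 CpG dinucleotides, and 16.3% of all 32851 promoter windows in the table held more than 20. The other windows of the 10 genes held between 1 and 11 each, against a median of 6 over all promoters. Cdhr2 and Myo1a had 1 each, Vil1 had 5, Cdhr5 and Ush1c had 7 and Pls1 had 10. Letters of 5 factors of the intestinal epithelium were searched on both strands of the 300-base windows. The HNF1 letters GTTAATNAT were found only in Cdhr2, at 54 bases before the start site, and in 0.801% of all promoters. The CDX2 letters TTTATGG were found in 1 of the Espn windows, and in 2.75% of all promoters. The HNF4 letters CAAAGTCC (1.42% of all promoters), the GATA letters AGATAA (11.2%) and the POU letters ATGCAAAT (1.74%) were in none of these windows. A match of letters is a description and not evidence of binding. Whether CpG counts go with the levels of the genes was not tested.

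As a sum, the 10 genes had their highest levels in the absorptive and the tuft cells, which did not hold for each gene. The tuft sum (mean 2156 CPM) included 785 CPM of Espn and 459 CPM of Cdhr5. Among the 10 types, tuft cells ranked 9 for Eps8 and 6 for Pls1 in plain CPM. Summed over the 10 genes, enterocytes held 3413 CPM (95% interval 3387 to 3439) in replicate 1 and 2319 CPM (2278 to 2360) in replicate 2, and tuft cells held 2114 (1976 to 2258) and 2199 (2077 to 2325). The ranges of these 2 types do not meet, but the nearest values are those of replicate 2, which differ by little. Enteroendocrine cells (EEC), the hormone-secreting cells of the epithelium, followed with 932 ± 188 CPM (SD, n = 2), and goblet cells, which secrete mucus, with 817 ± 225 (SD, n = 2). Stem cells had 450 ± 104 (SD, n = 2) and transit-amplifying (TA) cells 614 ± 177 (SD, n = 2). The lowest sums were in Paneth cells (113 ± 37.6) and in intraepithelial lymphocytes (IEL, 195 ± 74.7), both as SD with n = 2. The order of tuft cells and enterocytes held under a scaling that allows for a few dominant genes (TMM), at 1501 against 3045 CPM. The order below them did not, since goblet cells were at 884 CPM and Paneth cells at 777 CPM there, both above EEC with 603. Except where TMM is named, the levels and orders given below are of plain CPM.

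**Figure D1:**
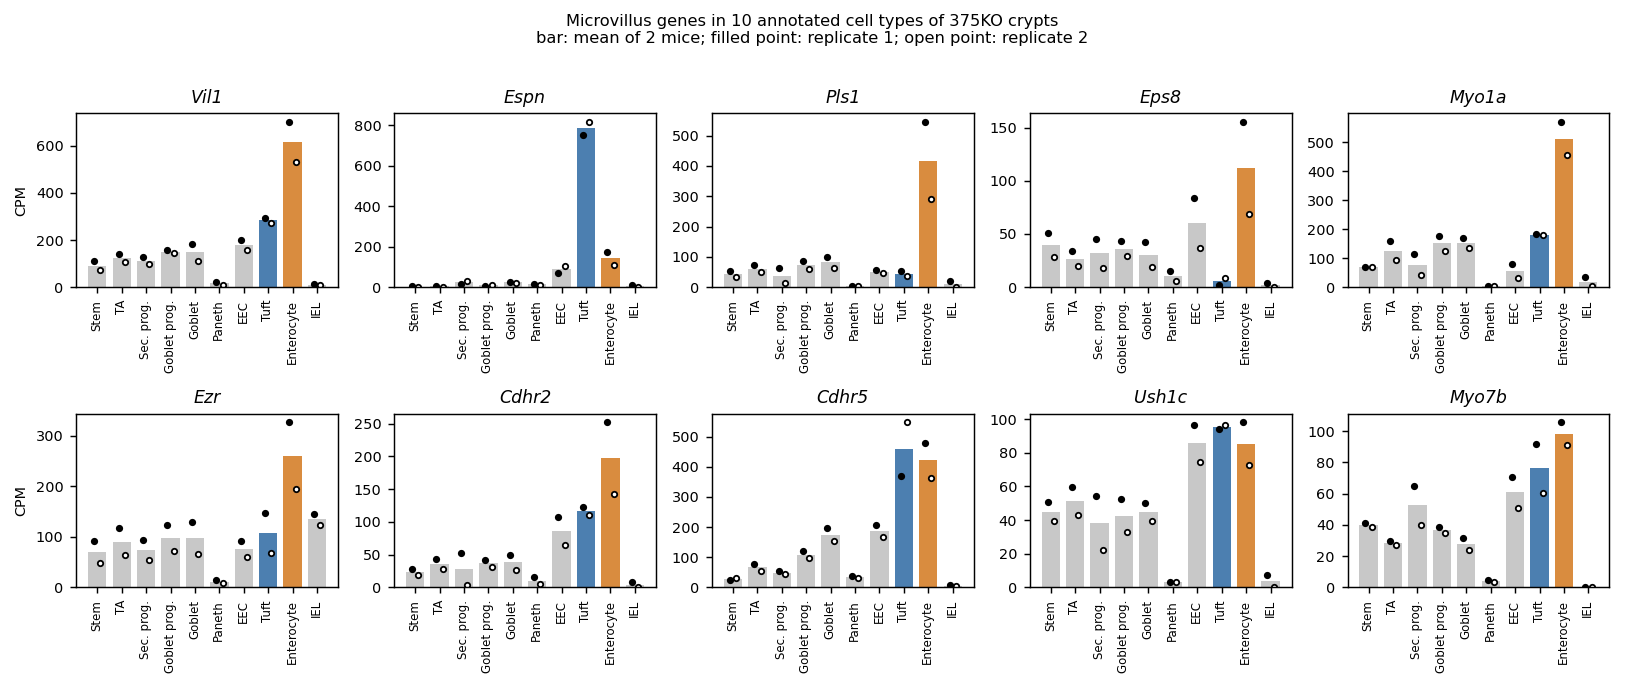
CPM of each of the 10 genes (linear y axis, 1 panel per gene) in 10 annotated cell types, with bars for the mean of 2 mice and points for each mouse. In 7 panels the enterocyte bar (orange) is the tallest in both mice, Espn stands out in tuft cells (blue) with 752 and 818 CPM, and Eps8 is near 0 in tuft cells.

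The cross-linking proteins differed in where they were highest, Vil1 and Pls1 in enterocytes and Espn in tuft cells. Vil1 (ENSMUSG00000026175.12, chromosome 1, 74409376 to 74435559, plus strand, mm10) had 703 and 532 CPM in enterocytes of replicates 1 and 2, and 295 and 273 CPM in tuft cells. It had 200 and 158 CPM in EEC, 183 and 112 CPM in goblet cells and 110 and 71.7 CPM in stem cells. Enterocytes and tuft cells overlapped with no other type in their Vil1 level, whereas from EEC down to stem cells each type overlapped with the next. Paneth cells had 23.3 and 9.85 CPM and lymphocytes had 3 and 2 UMIs of Vil1 in all.

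Espn was the one gene whose level in tuft cells exceeded that of every other type in both mice. The gene (ENSMUSG00000028943.18) spans 152120331 to 152152371 on chromosome 4, minus strand. Its level was 752 CPM (671 to 840) and 818 CPM (745 to 896) in tuft cells, 176 and 109 CPM in enterocytes, and 70.9 and 107 CPM in EEC. Tuft cells, enterocytes and EEC held the first 3 places without overlap in plain CPM, although the EEC value of replicate 2 came close to the enterocyte value of that mouse. With TMM scaling, Espn was at 110.5 and 70.9 CPM in Paneth cells and at 44.6 and 71.7 CPM in EEC, which overlapped. Goblet cells had 26.4 and 19.2 CPM, TA cells had 6.04 and 2.45 CPM, and stem cells had 7 UMIs in 139 cells and 1 UMI in 117 cells.

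Pls1, by contrast, was an enterocyte gene with no excess in tuft cells. The gene (ENSMUSG00000049493.13) spans 95752642 to 95845311 on chromosome 9, minus strand. Enterocytes had 546 and 289 CPM, and the next type, goblet cells, had 99.4 and 64.4 CPM. Tuft cells had 53.2 and 35.7 CPM, which overlapped with EEC (56.4 and 46.4), stem cells (52.7 and 31.8) and secretory progenitors (63.0 and 13.4).

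Eps8 was nearly undetected in tuft cells. The gene (ENSMUSG00000015766.14) spans 137477245 to 137654876 on chromosome 6, minus strand. In tuft cells there was 1 UMI in 40 cells of replicate 1 (2.42 CPM, 0.0612 to 13.5) and there were 5 UMIs in 38 cells of replicate 2 (8.93 CPM, 2.90 to 20.8). Lymphocytes, which have no brush border, had 1 UMI and 0 UMIs of Eps8. Enterocytes had 156 and 69.0 CPM and EEC 83.8 and 37.1 CPM, so that enterocytes were highest within each mouse while the ranges over the mice overlapped. Stem cells had 50.5 and 28.7 CPM, above tuft cells in both mice.

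The proteins that tie the bundle to the membrane were both led by enterocytes. Myo1a (ENSMUSG00000025401.9, chromosome 10, 127705170 to 127720940, plus strand) had 571 and 455 CPM in enterocytes and 184 and 179 CPM in tuft cells. Goblet cells (169 and 134 CPM), goblet progenitors (176 and 125) and TA cells (158 and 93.6) followed and overlapped with each other. With TMM scaling, Myo1a in goblet cells (179 and 149 CPM) was above that in tuft cells (124 and 128). Myo1a was low in EEC, at 79.0 and 32.5 CPM.

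Ezr stood apart from the other genes in its level in lymphocytes. It spans 6738041 to 6782784 on chromosome 17, minus strand (ENSMUSG00000052397.8), and had 327 and 194 CPM in enterocytes. Lymphocytes came second in plain CPM with 145 and 124, from 38 and 28 UMIs, more than they had of any other of the 10 genes. With TMM scaling, goblet cells (137 and 73.1 CPM) had a higher mean of Ezr than lymphocytes (93.9 and 79.5). Tuft cells had 148 and 67.9 CPM, and from the lymphocytes down to stem cells (92.5 and 47.4 CPM) each type overlapped with the next.

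The tip-link genes had their highest levels in tuft cells and enterocytes. Cdhr5 (ENSMUSG00000025497.15, chromosome 7, 141269083 to 141276786, minus strand) had 370 and 548 CPM in tuft cells and 478 and 364 CPM in enterocytes, so that the order of these types differed between the mice. EEC had 208 and 167 CPM and goblet cells 196 and 152, and these overlapped. With TMM scaling, Cdhr5 was lower in EEC (131 and 112 CPM) than in goblet cells (208 and 170) and Paneth cells (236 and 255). Cdhr2 (ENSMUSG00000034918.8, chromosome 13, 54701461 to 54736662, plus strand) was highest in enterocytes, at 252 and 143 CPM, followed by 123 and 111 CPM in tuft cells and 108 and 65.0 CPM in EEC, without overlap between these types. In the other types of epithelium Cdhr2 did not exceed 52.1 CPM, but with TMM scaling Paneth cells of replicate 1 were at 97.8 CPM, above the 83.3 CPM of tuft cells and 67.9 CPM of EEC in that mouse.

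Ush1c and Myo7b, which hold the links from inside, had their highest levels in enterocytes, tuft cells and EEC. Ush1c (ENSMUSG00000030838.18, chromosome 7, 46195350 to 46238503, minus strand) had 94.3 and 96.4 CPM in tuft cells, 96.7 and 74.3 CPM in EEC and 98.2 and 72.5 CPM in enterocytes. These 3 ranges overlapped, and all lay above the 59.5 and 42.8 CPM of TA cells. With TMM scaling, Ush1c in enterocytes (106 and 75.3 CPM) was above that in tuft cells (63.7 and 69.1), without overlap. EEC (60.8 and 49.9 CPM) overlapped with goblet cells (53.3 and 43.8) under that scaling. Myo7b (ENSMUSG00000024388.10, chromosome 18, 31959234 to 32036961, minus strand) had 106 and 91.1 CPM in enterocytes, 91.9 and 60.7 CPM in tuft cells and 70.9 and 51.1 CPM in EEC. Each of these ranges overlapped with the next one down. With TMM scaling, Myo7b in enterocytes (114 and 94.5 CPM) did not overlap with that in tuft cells (62.0 and 43.5). Lymphocytes had 0 UMIs of Myo7b, where a count of 3 UMIs, taken as the limit that 0 allows, is 11.4 CPM in replicate 1 and 13.3 CPM in replicate 2.

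Some of these genes share their position with another annotated gene. Vil1 overlaps Usp37, Ezr overlaps Sytl3, Ush1c overlaps Gm9860 and Myo7b overlaps Gm16344 and Gm16345, each on the opposite strand, and Gm44106 lies on the strand of Eps8. Whether the counting used strand is not given in the sources used here, so UMIs of these pairs may be divided or left out.

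The question for the fitted comparisons was how far the genes set enterocytes and tuft cells apart from the rest of the epithelium. UMI counts were summed per mouse and cell type, and 11013 genes were fitted in edgeR (quasi-likelihood test, Benjamini-Hochberg adjustment), all 10 of the microvillus genes among them. The reference was the mean of the same 7 epithelial types for both comparisons (stem, TA, secretory progenitor, goblet progenitor, goblet, Paneth and EEC), so the comparisons share their reference. The authors defined the types from the expression of the same cells, and the calls describe how the classes stand apart.

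In enterocytes, 10 of 10 genes were higher than in the 7 other types (adjusted p under 0.05), where 31.2% of all genes tested were higher and 23.8% were lower. The median log2 fold change of the 10 was 2.43, against 0.03 over all genes. The bundlers Espn and Pls1 had the largest values. The log2 fold change of Espn was 3.39 (SE 0.22, adjusted p = 6.88e-09), with 3.64 in replicate 1 and 2.90 in replicate 2. Pls1 was higher by 3.26 (SE 0.12, adjusted p = 9.08e-21), Myo1a by 2.89 (SE 0.12) and Vil1 by 2.53 (SE 0.11). The tip-link protocadherins were close to each other, with 2.49 (SE 0.14) for Cdhr2 and 2.37 (SE 0.13) for Cdhr5. Ezr was higher by 1.92 (SE 0.11), Eps8 by 1.73 (SE 0.14) and Myo7b by 1.63 (SE 0.12). Ush1c had the smallest value, 1.19 (SE 0.13, adjusted p = 4.52e-09), and each of the 10 was higher in both mice.

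Tuft cells were higher for 7 of the 10 genes and lower for 1, where 10.1% of all genes tested were higher and 5.82% were lower. The median over the 10 genes was a log2 fold change of 0.90, against 0.01 over all genes. Espn was higher by 5.39 (SE 0.22, adjusted p = 2.66e-10), with 5.06 and 5.35 in the mice, and Cdhr5 by 2.02 (SE 0.15, adjusted p = 3.46e-11). Cdhr2 followed with 1.29 (SE 0.21, adjusted p = 3.33e-05) and differed between the mice, with 0.90 in replicate 1 and 1.83 in replicate 2. Its tuft level was not higher in replicate 2 (123 and 111 CPM in replicates 1 and 2). In the reference, Cdhr2 was lower in replicate 2 in each of the 7 types. EEC, for instance, had 108 and 65.0 CPM, and secretory progenitors 52.1 and 4.46 CPM, the latter from 1 UMI in 19 cells. The part of these levels in the difference between the mice was not tested. Vil1 was higher by 0.94 (SE 0.14), Myo1a by 0.91 (SE 0.17), Ush1c by 0.88 (SE 0.20) and Myo7b by 0.74 (SE 0.20, adjusted p = 0.0102).

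The gene that was lower in tuft cells was Eps8, at -2.85 (SE 0.46, adjusted p = 2.03e-05). The value rests on 6 tuft UMIs in all and was -4.42 in replicate 1 and -1.71 in replicate 2. Pls1 and Ezr did not pass the threshold, with -0.44 (SE 0.25, adjusted p = 0.271) and 0.11 (SE 0.17, adjusted p = 0.765). Ezr had 0.23 in replicate 1 and -0.12 in replicate 2, and thinning cells to a common depth gave -0.43.

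**Figure D2:**
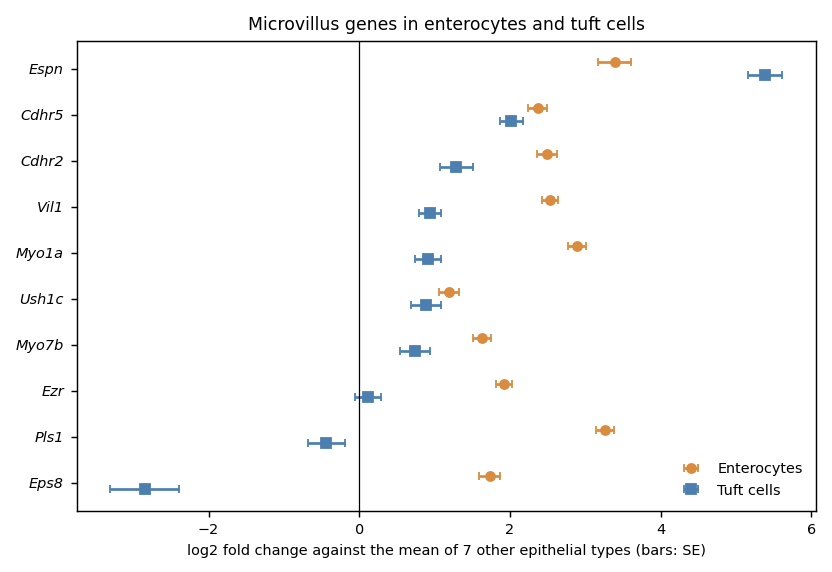
Log2 fold change of each gene in enterocytes (orange circles) and tuft cells (blue squares) against the mean of 7 other epithelial types, with bars for the standard error. All 10 enterocyte values lie above 0, between 1.19 and 3.39, while tuft cells run from -2.85 for Eps8 to 5.39 for Espn.

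Set directly against enterocytes, tuft cells had more Espn and less of 7 other genes. In this comparison 17.3% of all genes tested were higher in tuft cells and 21.1% were lower. The log2 fold change of Espn was 1.99 (SE 0.29, adjusted p = 9.21e-05), with 1.42 and 2.45 in the mice. Among the other actin-binding proteins of the core, 3 were lower, Eps8 at -4.58 (SE 0.41, adjusted p = 1.37e-10), Pls1 at -3.70 (SE 0.24, adjusted p = 1.08e-13) and Vil1 at -1.59 (SE 0.18, adjusted p = 1.23e-08). The membrane linkers were lower too, with -1.97 (SE 0.20) for Myo1a and -1.81 (SE 0.19) for Ezr.

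The adhesion genes differed less. Cdhr2 was lower in tuft cells, at -1.19 (SE 0.23, adjusted p = 0.000106), as was Myo7b, at -0.89 (SE 0.21, adjusted p = 0.00123). Cdhr5 and Ush1c did not pass the threshold, with -0.35 (SE 0.20, adjusted p = 0.180) and -0.31 (SE 0.22, adjusted p = 0.278). Cdhr5 was lower in tuft cells of replicate 1 (-1.04) and higher in those of replicate 2 (0.14). Without the term for mouse, the Cdhr2 call was lost in both tuft comparisons (adjusted p = 0.0514 against the 7 types and 0.0756 against enterocytes).

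Enterocyte RNA in the tuft sums was gauged from the 6 enterocyte markers. They summed to 331 and 1284 CPM in tuft cells of replicates 1 and 2, against 30983 and 15272 CPM in enterocytes, 8.93 to 1305 CPM in the other epithelial types except Paneth cells (0.284 and 0.229 CPM), and 621 and 0 CPM in lymphocytes. The higher of the tuft values was in replicate 2, as were the higher tuft levels of Cdhr5, Espn, Eps8 and Ush1c, whereas Vil1, Myo1a, Pls1, Ezr, Cdhr2 and Myo7b were higher in tuft cells of replicate 1. The part of such RNA in the tuft values was not tested. Tuft markers summed to 2539 and 2767 CPM in tuft cells and to 4.34 and 2.62 CPM in enterocytes.

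Counting genes per cell put enterocytes first, followed by tuft cells, EEC and goblet cells, as the summed levels in plain CPM did. Each cell was thinned to 5000 UMIs, and cells below that depth were left out (3 stem cells, 1 each of goblet, EEC, tuft and enterocyte cells and 39 of the 50 lymphocytes, all in replicate 1). Enterocytes had a UMI for 6.48 and 5.01 of the 10 genes on average, tuft cells for 4.74 and 4.26, and EEC for 3.87 and 3.20. Goblet cells had 3.38 and 2.64, stem cells 2.29 and 1.62, and Paneth cells 0.603 and 0.426. In Paneth cells 10 genes took 82.6% and 81.9% of the UMIs, and thinning to equal totals does not allow for this. All 10 genes were seen together in some enterocytes of both mice and in no cell of another type, where the highest number was 8. At least 5 of the genes were detected in 79.6% and 54.7% of enterocytes, in 66.7% and 50.0% of tuft cells and in 4.41% and 1.71% of stem cells.

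**Figure D3:**
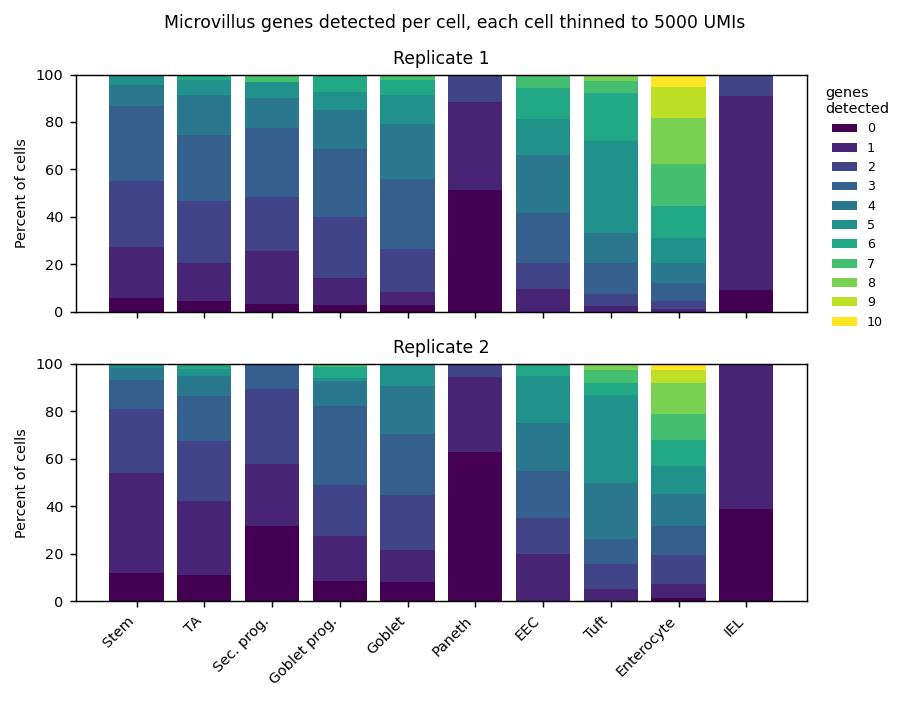
Percent of cells (y axis) of each annotated type in which 0 to 10 of the genes had a UMI, with each cell thinned to 5000 UMIs, for replicate 1 (top) and replicate 2 (bottom). Enterocytes are the only type with cells at 9 or 10 genes. Of Paneth cells, where 10 genes took 82.6% and 81.9% of the UMIs, 51.3% and 63.0% had none.

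Shares of cells with a UMI were also taken for single genes. Espn was detected in 94.9% (exact 95% interval 82.7 to 99.4) and 92.1% (78.6 to 98.3) of thinned tuft cells, in 49.5% and 30.1% of enterocytes and in 2.94% and 0% of stem cells. Eps8 was detected in 2.56% (0.0649 to 13.5) and 7.89% (1.66 to 21.4) of tuft cells and in 47.6% and 25.7% of enterocytes. Vil1 was detected in 90.1% and 80.6% of enterocytes and in 82.1% and 73.7% of tuft cells. For lymphocytes, which are not epithelial cells, the count was 0 of 11 and 0 of 18 cells for both Vil1 and Espn. At full depth, with a median of 4110 and 10226 UMIs per lymphocyte, Vil1 had a UMI in 4.00% and 5.56% of them as the background share in a type that should lack the gene. The Eps8 share in tuft cells at full depth, 2.5% and 13.2% at median depths of 8630 and 13017 UMIs, stood beside 2.00% and 0% in lymphocytes. The exact 95% intervals overlapped in both mice, with 0.0633 to 13.2 against 0.0506 to 10.6 in replicate 1 and 4.41 to 28.1 against 0 to 18.5 in replicate 2.

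Enterocytes were not uniform. The authors divided them into 5 clusters, numbered 1, 2, 3, 6 and 9, and since the clusters were drawn from the same cells their levels are a description. All 10 genes were lowest in cluster 2 in both mice, and the summed level was 1228 and 727 CPM there. It was 1973 and 1292 CPM in cluster 6, 3631 and 2921 CPM in cluster 3, 4060 and 3001 CPM in cluster 9 and 5377 and 5226 CPM in cluster 1. Cluster 2 also had the most RNA of the proliferation gene Mki67 (20.6 and 28.2 CPM, with 0 in cluster 1), and cluster 1 had the most of Apoa4 (7011 and 5387 CPM), a lipoprotein gene of mature enterocytes. Apoa4 did not follow the summed level throughout, with 297 and 68.8 CPM in cluster 9 against 2044 and 557 CPM in cluster 3. Reg3b was highest in cluster 9, at 36478 and 6542 CPM.

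The genes differed widely in the ratio of their level in cluster 1 to that in cluster 2. Espn was 20.7 and 58.4 times as high in cluster 1 as in cluster 2, starting from 16.6 and 5.90 CPM and reaching 343 and 344 CPM. Pls1 was 8.84 and 15.2 times as high and Cdhr2 9.33 and 11.5 times. Vil1 (4.01 and 7.15), Eps8 (4.39 and 7.57), Myo7b (4.36 and 7.23), Cdhr5 (4.89 and 7.44) and Ezr (3.58 and 5.30) formed a middle group, and Myo1a was 2.14 and 4.47 times as high. Ush1c was nearly level, at 1.24 and 1.52 times, with 82.3 and 53.7 CPM in cluster 2 and 102 and 81.6 CPM in cluster 1. The median share of mitochondrial reads moved the same way, from 10.2% and 5.89% in cluster 2 to 15.1% and 9.65% in cluster 1, and its part in these levels was not tested.

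**Figure D4:**
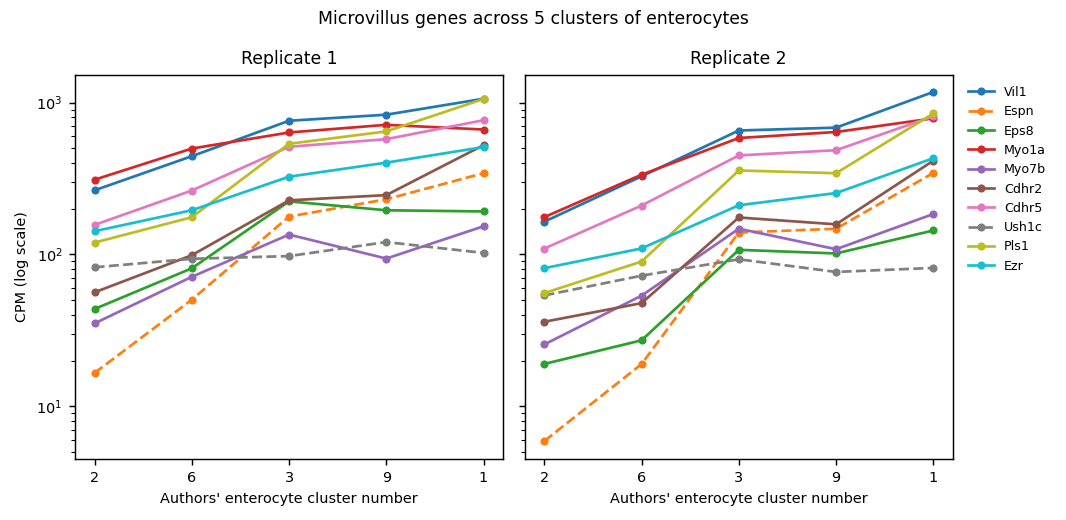
CPM (log y axis) of the 10 genes in the authors' 5 enterocyte clusters, ordered by the summed level in replicate 1, with 1 line per gene and 1 panel per mouse. Every line starts lowest at cluster 2, Espn (dashed orange) spans the widest range, and Ush1c (dashed grey) stays between 53.7 and 121 CPM.

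The mice differed in level in a shared direction. Vil1, Myo1a, Myo7b, Cdhr2, Pls1 and Ezr were higher in replicate 1 in 9 of 9 epithelial types, Eps8 in 8, Cdhr5 and Ush1c in 7, and Espn in 5. Of the 7931 genes with at least 10 CPM, 29.3% were higher in replicate 1 in at least 8 of 9 types and 11.3% were higher in replicate 2, and the median ratio was 1.13. In enterocytes the summed level was 1.47 times as high in replicate 1. Cluster 1 made up 30.3% of enterocytes in replicate 1 and 18.8% in replicate 2, and cluster 2 made up 19.7% and 28.0%. With the 5 clusters weighted alike, the ratio was 1.24, and it ranged from 0.940 for Myo7b to 1.85 for Eps8. Each mouse gave 1 library, so no test was made between them.

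The other genes that act with these proteins were followed as lists. The partners of the tip-link complex, Anks4b (a scaffold that binds Ush1c and Myo7b) and Calml4 (a light chain of Myo7b), were both higher than the 7 other types in enterocytes, by 2.42 (SE 0.14) and 1.29 (SE 0.099) on the log2 scale, and in tuft cells, by 1.33 (SE 0.24) and 1.45 (SE 0.10). Calml4 had 1337 and 1225 CPM in tuft cells and 879 and 748 CPM in enterocytes. In the fit, which uses TMM scaling, Calml4 did not pass the threshold between these types (0.16, SE 0.15, adjusted p = 0.431). Anks4b was lower in tuft cells than in enterocytes, at -1.08 (SE 0.23, adjusted p = 0.000337).

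Of 14 membrane and scaffold partners, 9 were higher in enterocytes than in the 7 types, 3 were lower and 2 did not pass, and in tuft cells 4 were higher, 1 was lower and 9 did not pass. Over all genes tested, 31.2% were higher and 23.8% lower in enterocytes, and 10.1% were higher and 5.82% lower in tuft cells. The median log2 fold changes of the list were 0.74 and -0.14, against 0.03 and 0.01 over all genes. Cobl, an actin nucleator of the terminal web, had 122 and 58.0 CPM in enterocytes and 4.84 and 8.93 CPM in tuft cells, a difference of -4.06 (SE 0.42) on the log2 scale between tuft cells and enterocytes.

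Scaffolds of the membrane were split between the types as well. Pdzk1, which anchors membrane transporters, had 91.1 and 60.2 CPM in enterocytes and 0 UMIs in tuft cells. Slc9a3r1, which binds ezrin, was higher than in the 7 types in enterocytes (2.82, SE 0.14) and in tuft cells (1.27, SE 0.20). Lima1, an actin-binding protein, had 800 and 543 CPM in tuft cells and 309 and 222 CPM in enterocytes, and Myo6, a motor of the microvillus base, had 351 and 257 CPM against 128 and 98.7 CPM. Both were higher in tuft cells than in enterocytes, by 0.83 (SE 0.19) and 0.93 (SE 0.18). Lower in tuft cells than in enterocytes were, among others, Baiap2l1 at -2.01 (SE 0.35) and Slc9a3r1 at -1.55 (SE 0.23). In the direct comparison 3 of the 14 were higher in tuft cells, 7 were lower and 4 did not pass, where 17.3% of all genes were higher and 21.1% were lower.

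Of the actins that form the bundle, Actb was higher than in the 7 types by 1.65 (SE 0.22) in enterocytes and by 1.16 (SE 0.23) in tuft cells. Actg1 passed the threshold in tuft cells (0.93, SE 0.24, adjusted p = 0.0268) and not in enterocytes (0.56, SE 0.25, adjusted p = 0.0818), and neither actin passed it between tuft cells and enterocytes.

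Genes that carry cargo to the apical surface and set its polarity were mostly higher in enterocytes. Of 10 tested of 11, 8 were higher in enterocytes than in the 7 types, 1 was lower and 1 did not pass, while in tuft cells 1 was higher and 9 did not pass. The shares of all genes that were higher were 31.2% in enterocytes and 10.1% in tuft cells, so that the count in tuft cells was at the level over all genes. Myo5b, the motor of apical recycling endosomes, had 187 and 120 CPM in enterocytes and 48.4 and 19.6 CPM in tuft cells, and was higher in enterocytes than in the 7 types by 2.67 (SE 0.13). Rab8a (1.24, SE 0.12) and Stx3 (1.14, SE 0.15), which act in apical exocytosis, were higher there too. Stk10, a kinase that acts on ezrin, was called higher in enterocytes (3.11, SE 0.78) at 5.06 and 0.935 CPM, and its sign was negative in replicate 2 alone. The gene higher in tuft cells was Rab11a (0.86, SE 0.16). In the direct comparison 1 of the 10 was higher in tuft cells, 4 were lower and 5 did not pass (17.3% higher and 21.1% lower over all genes). The lower ones were Myo5b (-2.72, SE 0.27), Stk24 (-1.78, SE 0.36), Rab8a (-0.96, SE 0.21) and Stx3 (-0.94, SE 0.28).

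Paralogs of the 10 genes showed which members of each family the types held. Avil (advillin), a relative of villin, had 600 and 466 CPM in tuft cells, 8.69 and 31.2 CPM in secretory progenitors and under 12 CPM in every other type. Eps8l3, a relative of Eps8, had 297 and 180 CPM in tuft cells, where Eps8 was near 0, and 210 and 156 CPM in enterocytes. Between these types Eps8l3 did not pass the threshold (-0.14, SE 0.18, adjusted p = 0.592), with -0.17 and -0.24 in the mice. Eps8l2 had 118 and 80.0 CPM in enterocytes, 93.5 and 78.9 CPM in EEC and 50.8 and 48.2 CPM in tuft cells. Myo7a, the paralog of Myo7b, had 37.6 and 26.7 CPM in enterocytes and 0 and 3.57 CPM in tuft cells.

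Of the relatives of plastin 1 and ezrin, Lcp1, Msn and Rdx were highest in lymphocytes, which also held Ezr itself (145 and 124 CPM). Lcp1 (plastin 2) had 514 and 470 CPM in lymphocytes and at most 14.6 CPM in epithelial types. Pls3 was highest in EEC, with 12.9 and 13.9 CPM, and was lower in enterocytes than in the 7 types, at -3.04 (SE 0.51). Msn (moesin) had 183 and 129 CPM and Rdx (radixin) 72.4 and 106 CPM in lymphocytes. In the epithelial types Rdx did not exceed 1.79 CPM and Msn did not exceed 18.6 CPM, the latter from EEC of replicate 2. Lymphocyte markers summed to 1263 CPM in these EEC and to 3.22 CPM in EEC of replicate 1, and their part in the Msn value was not tested. Vill, Espnl and Eps8l1 were at most 4.83 CPM in every type. Of the 7 paralogs tested, 3 were higher in enterocytes than in the 7 types and 2 were lower, and in tuft cells 2 were higher and 0 were lower. Between tuft cells and enterocytes 1 was higher and 2 were lower. With 31.2% of all genes higher and 23.8% lower in enterocytes, 10.1% and 5.82% in tuft cells, and 17.3% and 21.1% between them, counts of 7 genes do not set the paralogs apart.

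**Figure D5:**
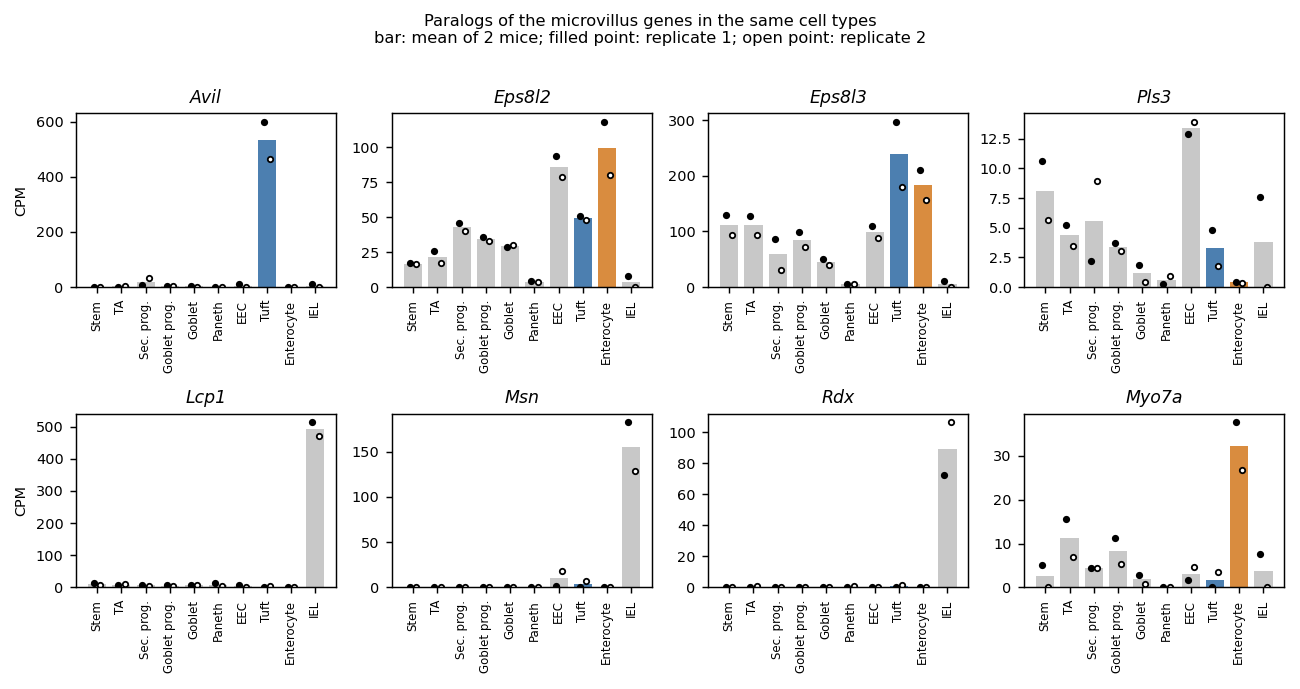
CPM of 8 paralogs (linear y axis with its own range in each panel) in 10 annotated cell types, with bars for the mean of 2 mice and points for each mouse. Avil is tallest in tuft cells (600 and 466 CPM), and Lcp1, Msn and Rdx stand high in lymphocytes.

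The 10 profiles were compared over the 18 sums of 9 epithelial types and 2 mice, as a description, since the sums of a mouse share a library. Vil1 followed the mean of the other 9 genes most closely (Pearson r = 0.957) and Eps8 least (0.269). Pairs of genes ranged from -0.12 for Espn with Eps8 to 0.89 for Pls1 with Ezr. The genes outside the 10 whose profile was most like the mean of the 10 were Scp2 (a sterol carrier protein, 0.935), Prdx5 (a peroxiredoxin, 0.914), Slc9a3r1 (0.914), Myo15b (an unconventional myosin, 0.913) and Chmp1a (0.898). Scp2, for instance, had 1445 and 957 CPM in enterocytes, 329 and 307 CPM in tuft cells and 242 and 147 CPM in stem cells.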

How the data were processed

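Single-cell RNA was measured with a 10x Genomics 3′ v2 kit in 2 libraries, 1 per mouse. Per the labels and the study's methods, the authors aligned reads to mm10 (10x reference) with Cell Ranger 3.0.1 and deposited UMI counts per gene and barcode. The methods name SoupX for free RNA, but not for which matrices. The authors removed doublets called by scDblFinder, cells under 1500 genes and cells over 25 percent mitochondrial reads, clustered the cells in Seurat and named the clusters. They deposited the mitochondrial percent of each cell. A deposited table of corrected counts (sctransform score) was not used, nor were 2937 cell columns of another series.

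Annotations were joined to the named matrices by barcode. For 3275 of 3275 cells the UMI total in the annotation equalled that in the deposited count table of the whole study. The matrices hold more genes than that table (27998 against 16751). At most 0.408% of the UMIs of a cell in replicate 1, and 1.27% in replicate 2, lay outside it. Counts were summed per mouse and type, with sums under 10 cells left out (none in the main analysis). The 18 epithelial sums were filtered with filterByExpr, scaled by TMM and fitted with edgeR 4.0.16 (quasi-likelihood, robust, R 4.3.3), with cell type and mouse as terms and 8 residual degrees of freedom. Tests were two-sided, with Benjamini-Hochberg adjustment over 11013 genes and a threshold of 0.05. SE is the log2 fold change over the square root of F. Log2 values for each mouse alone were computed with a prior count of 2, untested. Sums of 1 mouse come from the same animal and library, so the mouse term pairs them. The code was tested on simulated data. DESeq2 1.42.0 was an alternative, among others listed in the closing section. Shares carry exact Clopper-Pearson intervals.

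The genes, lists and comparisons were chosen with earlier results of these data known. All 10 genes are named, all paralogs are given by level, and of each other list up to 4 genes with the largest change past the threshold in a comparison. The values of 1 listed gene are not reported here. Lima1, Myo6, Slc9a3r1 and Rab11a meet this in the tuft comparison. Gene positions are from GENCODE M21 on mm10, counted from 1.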

Additional observations from a re-analysis of the deposited data

Results flagged for a closer look

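Barcodes that the authors did not keep also held UMIs of the 10 genes, which lies outside the measurements above. In replicate 1 the 5583 such barcodes had a summed level of 1555 CPM (95% interval 1538 to 1573), against 1907 CPM over all kept cells, with a median mitochondrial share of 70.9%. In replicate 2 the 58 such barcodes had 271 CPM (246 to 299), against 913 CPM in kept cells. The limit that a count of 0 would allow was 0.148 and 1.98 CPM. Apoa4 had 1223 and 11.2 CPM in the same barcodes. Which cells these barcodes came from was not tested.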

How the results depend on the processing

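The counts of the 10 genes past the threshold (10 in enterocytes, 8 in tuft cells, 8 in tuft cells against enterocytes) were the same under DESeq2, RLE factors, no filter on low counts, cells thinned to 5000 UMIs, a stricter cell filter (at least 2500 genes and at most 15 percent mitochondrial reads), without Paneth cells and with lymphocytes. Without the term for mouse (no replicate block) they were 10, 7 and 7. Over all genes, leaving out this block lowered the calls in enterocytes from 6065 to 3931, in tuft cells from 1754 to 995 and between tuft cells and enterocytes from 4230 to 2746. Thinning lowered them to 3537, 1061 and 2764, with fewer UMIs per sum. The signs of Ezr in tuft cells (-0.427) and of Ush1c between tuft cells and enterocytes (0.038) turned under thinning, neither being past the threshold, and Stk10 in enterocytes ranged from -0.273 to 3.367 with 1 replicate left out. The causes were not tested. The summed tuft level of 2156 CPM became 1501 with TMM scaling and 2246 with thinning. With 1 replicate left out, it ranged from 2114 to 2199 CPM, that of enterocytes from 2319 to 3413 CPM, and the number of genes highest in enterocytes from 7 to 9. Weighting the enterocyte clusters alike, chosen after seeing the data, gave 2944 CPM. Counts of calls could not be had with 1 mouse, where no residual degrees of freedom remain. The stricter filter left 2 Paneth cells and 4 lymphocytes in replicate 1, whose sums were left out. Tuft sums held 413531 and 559907 UMIs, and the smallest epithelial sums were those of EEC (215413) and secretory progenitors (224086) in replicate 2.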
